A study of Sus scrofa with 11 samples.

Results

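The genes described here are 9 genes through which the artery wall starts, restrains and dissolves blood clots: F3, TFPI, TFPI2, THBD, PROCR, PLAT, PLAU, PLAUR and SERPINE2. They were chosen by gene name from a table of 35670 genes, and each name occurs there once. All 9 passed the filter on low counts and are among the 15930 genes tested. The tissue was the carotid artery of pigs (Sus scrofa) kept for 12 weeks on a Western diet rich in fat and calories, and its polyadenylated RNA was sequenced. Both groups were given an intravenous infusion at 400 nM every week under general anaesthesia. In the SWNT group this was the carrier alone, single-walled carbon nanotubes, and in the SWNT-SHP1i group that carrier with a chemical SHP-1 inhibitor on board, SHP-1 being a phosphatase that restrains the uptake of dying cells by macrophages. The stated purpose was to test how well and how safely the loaded carrier clears apoptotic cells and dampens inflammation in porcine atherosclerosis, anaemia being the side effect watched for. All animals thus carried nanotubes and the diet, and no untreated or chow-fed animal was analysed here. The labels give no strain, sex or age. Counts cover 5 SWNT animals (replicates 1 to 5) and 5 SWNT-SHP1i animals (replicates 1, 2, 3, 5 and 6). Each library has its own animal number, and 8 of the 10 numbers begin with B9. The exceptions are replicate 3 of either group, and nothing says that this marks a batch. SWNT-SHP1i replicate 4, labelled as having died before harvest, was not analysed here.

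Coagulation in a vessel begins when tissue factor, the product of F3, meets circulating factor VII. Tissue factor pathway inhibitor (TFPI) blocks that step, and thrombomodulin (THBD) with the endothelial protein C receptor (PROCR) turns thrombin into an activator of the anticoagulant protein C. Fibrin is then dissolved by plasmin, which tissue-type (PLAT) and urokinase-type (PLAU) plasminogen activators make from plasminogen, the latter while bound to its receptor PLAUR. In arteries tissue factor is known mainly from the outer wall and smooth muscle, and thrombomodulin from the endothelium.

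Total counts ran from 27593564 to 47718854 per library. Of the marker lists used to check the tissue, contractile smooth muscle held 42240 to 62450 CPM (read counts scaled to a common library size, summed over 10 genes) in SWNT and 19980 to 51630 CPM in SWNT-SHP1i, and 0 of its 10 markers were at 0 in any library. Endothelial markers (10 of 10 present) summed to 583 to 1853 CPM in SWNT and 734 to 1978 CPM in SWNT-SHP1i. Earlier results of these data had shown SWNT-SHP1i replicates 3 and 6 to stand apart from the other libraries, and for the genes described here SWNT replicate 3 stood apart as well. In SWNT replicate 3 the mean centred log2 level was 2.40 for immediate early genes, 2.99 for red cell genes and 0.87 for endothelial markers, each the highest of the 10 libraries. SWNT-SHP1i replicate 6 had the highest macrophage (1.59) and neutrophil (3.98) levels and the lowest smooth muscle level (-1.41). Values that moved most with these libraries are given with and without them below. In bulk tissue, fewer cells of a type and less RNA per cell cannot be told apart.

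None of the 9 genes differed between SWNT-SHP1i and SWNT carotid artery after adjustment over all genes tested. PLAU, PROCR and PLAUR had the largest positive log2 fold changes (0.81, 0.57 and 0.83) and PLAT, SERPINE2 and THBD the largest negative ones (-0.78, -0.62 and -0.54), while F3, TFPI and TFPI2 lay between -0.23 and 0.25. By the quasi-likelihood test of edgeR, 0 of 9 passed at an adjusted p under 0.05 over all genes tested, with adjusted p from 0.997 to 1.0, where the share of all genes called was 0.0% (0 of 15930). DESeq2 and limma-voom with quality weights also called 0 genes. At an adjusted p under 0.1 DESeq2 called 16 genes (0.1% of those tested) and limma-voom 1 (0.00628%), with 0 of the 9 among them. PLAT had no p in DESeq2 and could not be called by it. At an unadjusted p under 0.05 the edgeR test held 1 of the 9 (PLAU) beside 739 of all genes tested (4.64%). By direction, 1 of 9 was higher and 0 lower, against 3.49% higher and 1.15% lower over all genes. The groups overlapped for each of the 9 genes, and failed to overlap for 57 of all genes tested (0.358%), 13 of them higher in SWNT-SHP1i (0.0816%) and 44 lower (0.276%). Over the 9 genes the median log2 fold change was -0.03, with 4 positive and 5 negative, and over all genes tested it was 0.01. The intervals are wide, so these values do not show that the groups were alike. The 95% interval of the log2 fold change (SWNT-SHP1i over SWNT) was -0.76 to 0.30 for F3 and -0.71 to 0.65 for TFPI2, and it reached from -1.73 to 2.23 for TFPI. For PLAU alone of the 9 the interval, which is not adjusted for the number of genes, left out 0 (0.10 to 1.52).

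**Figure D1:**
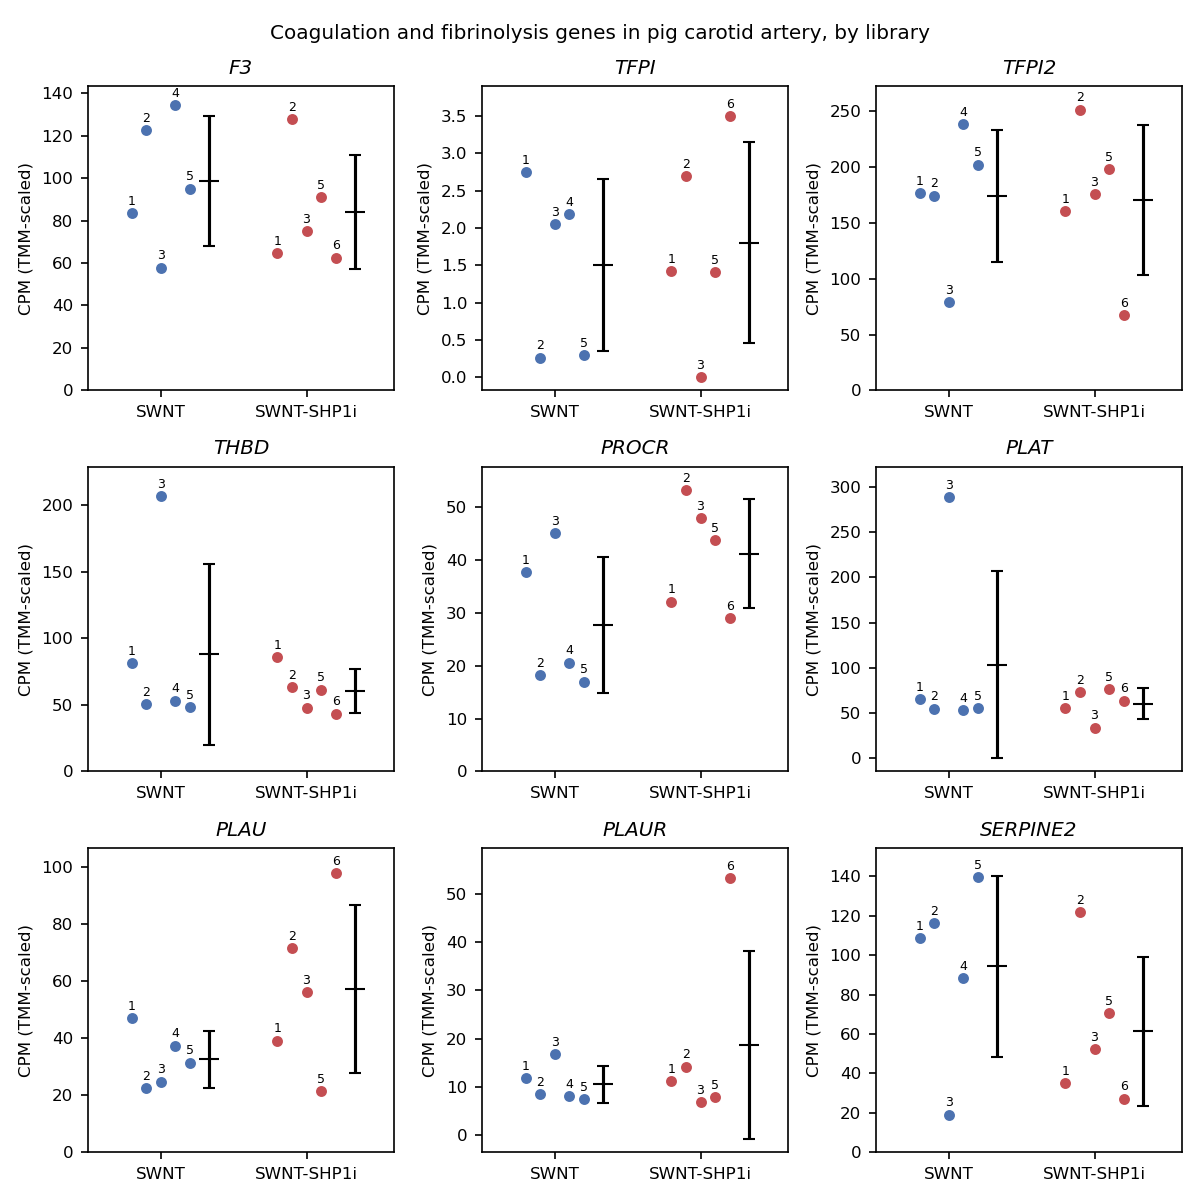
Level of each gene in CPM (vertical axes, linear, TMM-scaled) in each library, by group, with the replicate number above each point and the mean ± SD (n = 5) as a bar at the right of each group. The groups overlap for all 9 genes, SWNT replicate 3 is the highest library for PLAT (288.8 CPM) and THBD (206.8 CPM), and SWNT-SHP1i replicate 6 for PLAUR (53.3 CPM).

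Per length of transcript, tissue factor had the highest counts of the 9 and TFPI by far the lowest. The mean over the 10 libraries, in CPM per kilobase of the deposited gene length, was 45.2 ± 13.9 (SD, n = 10) for F3, 30.8 ± 17.1 for SERPINE2, 30.1 ± 10.4 for TFPI2 and 29.8 ± 26.9 for PLAT. PROCR (20.3 ± 7.71), PLAU (16.8 ± 9.15), THBD (10.9 ± 7.18) and PLAUR (10.4 ± 9.998) followed, and TFPI stood at 0.456 ± 0.327. F3 was at the 92.8th percentile of the genes tested and TFPI at the 14.5th. Of the 8 neighbouring pairs in this order, the mean log2 difference exceeded its own SD over libraries for F3 over SERPINE2 (0.76 ± 0.67) and for PLAUR over TFPI (4.84 ± 1.57, in 10 of 10 libraries). The other 6 neighbours did not differ beyond their spread. SERPINE2 and TFPI2 could not be ordered: SERPINE2 lay above TFPI2 in 4 of 10 libraries. This order depends on the annotated lengths. Whether the counting settings or the gene model lowered the TFPI counts could not be settled from the table, and this limits what its level and its differences from F3 mean. THBD, known to lack introns, is listed with its whole span of 6797 bases.

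Tissue factor is the membrane receptor that triggers coagulation. F3 (ENSSSCG00000022447) lies on chromosome 4 (122826644 to 122837666, plus strand, all coordinates on Sscrofa11.1). It stood at 83.4, 122.6, 57.8, 134.4 and 95.04 CPM in SWNT replicates 1 to 5. In SWNT-SHP1i replicates 1, 2, 3, 5 and 6 it stood at 64.6, 127.6, 74.9, 90.9 and 62.6 CPM. SWNT replicate 4 and SWNT-SHP1i replicate 2 were the highest libraries and SWNT replicate 3 the lowest, and every SWNT-SHP1i value lay within the SWNT range. Mean log2 CPM was 6.56 ± 0.48 (SD, n = 5) for SWNT and 6.34 ± 0.42 for SWNT-SHP1i, and the log2 fold change was -0.23 ± 0.27 (SE). F3 varied least of the 9, with a highest library at 2.33 times the lowest.

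TFPI, the inhibitor of the tissue factor and factor VII complex, was almost undetected in 3 of the 10 libraries. The gene (ENSSSCG00000016032) lies on chromosome 15 (92345075 to 92409905, minus strand). It had 121, 9, 92, 87 and 10 counts in SWNT replicates 1 to 5, which is 2.75, 0.265, 2.05, 2.18 and 0.299 CPM. The counts in SWNT-SHP1i replicates 1, 2, 3, 5 and 6 were 56, 110, 0, 47 and 84, or 1.42, 2.69, 0, 1.41 and 3.49 CPM. A count of 0 in SWNT-SHP1i replicate 3 allows up to 0.0815 CPM (3 counts, counting error only). The low libraries, SWNT replicates 2 and 5 and SWNT-SHP1i replicate 3, thus belong to both groups, and the other 7 lay between 1.41 and 3.49 CPM. Its log2 fold change of 0.25 ± 1.01 had the widest error of the 9 genes and changed sign when SWNT replicate 2 (-0.02), SWNT replicate 5 (-0.01) or SWNT-SHP1i replicate 6 (-0.13) was left out. The adipocyte marker list was at its lowest in SWNT replicates 2 (-2.03) and 5 (-1.99) and at -0.67 in SWNT-SHP1i replicate 3, but it was also low (-1.56) in SWNT-SHP1i replicate 1, where TFPI was at 1.42 CPM. The endothelial list stood at -0.69, -0.77 and -0.36 in the 3 libraries low for TFPI. It was also at -0.30 in SWNT replicate 4 and -0.24 in SWNT-SHP1i replicate 1, with TFPI at 2.18 and 1.42 CPM. The part of these lists in the TFPI levels was not tested. At these counts TFPI is measured with far less precision than the other 8 genes.

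TFPI2 (ENSSSCG00000015322) encodes a related inhibitor with Kunitz domains that acts mainly on plasmin and other matrix-degrading proteases. It was the most abundant of the 9 in CPM and is annotated on chromosome 9 (73673535 to 73689095, minus strand), where it overlaps GNGT1 on the opposite strand. GNGT1 had at most 7 counts in any library. The TFPI2 values were 176.7, 174.3, 79.1, 238.2 and 202.1 CPM in SWNT replicates 1 to 5 and 160.3, 251.1, 175.4, 197.8 and 67.5 CPM in SWNT-SHP1i replicates 1, 2, 3, 5 and 6. SWNT replicate 3 and SWNT-SHP1i replicate 6 were the low libraries, 1 in each group, and the other 8 lay between 160.3 and 251.1 CPM. SWNT-SHP1i over SWNT gave a log2 fold change of -0.03 ± 0.35.

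Tissue factor and TFPI could not be related at equal precision. On the log2 scale of CPM per kilobase, F3 exceeded TFPI by 5.74, 9.43, 5.62, 6.75 and 8.92 in SWNT replicates 1 to 5. In SWNT-SHP1i replicates 1, 2, 5 and 6 the difference was 6.30, 6.39, 6.80 and 4.99, and in replicate 3, with TFPI at 0, F3 was at least 1652-fold higher per kilobase (against the limit of 3 counts in that library). The differences above 8 were in SWNT replicates 2 and 5, with 9 and 10 TFPI counts, and F3 was at 122.6 and 95.04 CPM there.

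Thrombomodulin, the endothelial cofactor that redirects thrombin to protein C, stood out in a single SWNT library. THBD (ENSSSCG00000053422) lies on chromosome 17 (30217303 to 30224099, minus strand). Its levels were 81.4, 50.3, 206.8, 53.0 and 48.02 CPM in SWNT replicates 1 to 5 and 85.6, 63.1, 47.96, 61.5 and 43.3 CPM in SWNT-SHP1i replicates 1, 2, 3, 5 and 6. SWNT replicate 3 was 2.42 times the next library and 3.90 times the median of the other 9. The latter ratio was reached or exceeded by 1757 of 15930 genes tested, 247 of them in this library. Apart from SWNT replicate 3 both groups covered nearly the same range. Its log2 fold change of -0.54 ± 0.40 (adjusted p = 0.997, edgeR) became 0.05 without that library (adjusted p = 0.987, edgeR).

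PROCR, the receptor that presents protein C to the thrombin and thrombomodulin complex, had a different pattern. The gene (ENSSSCG00000026585) lies on chromosome 17 (38532763 to 38537394, plus strand). In SWNT replicates 1 to 5 it stood at 37.7, 18.3, 45.1, 20.6 and 17.0 CPM, and in SWNT-SHP1i replicates 1, 2, 3, 5 and 6 at 32.2, 53.2, 47.9, 43.8 and 29.0 CPM. SWNT replicates 2, 4 and 5 lay below every SWNT-SHP1i library, while SWNT replicates 1 and 3 lay among them, so the groups overlapped. Mean log2 CPM was 4.68 ± 0.64 (SD, n = 5) for SWNT and 5.33 ± 0.38 for SWNT-SHP1i. The log2 fold change was 0.57 ± 0.31 (SE, unadjusted p = 0.0875, adjusted p = 0.997, edgeR). It was positive in all 20 alternative fits run for it, from 0.44 to 0.94, and did not pass the threshold in any, with a smallest adjusted p of 0.517 under limma-voom with quality weights. Endothelial markers were also low in SWNT replicates 2, 4 and 5 (-0.69, -0.30 and -0.77) and high in SWNT replicate 3 (0.87), yet low as well (-0.36) in SWNT-SHP1i replicate 3, where PROCR was high. Their part in the PROCR levels was not tested.

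**Figure D2:**
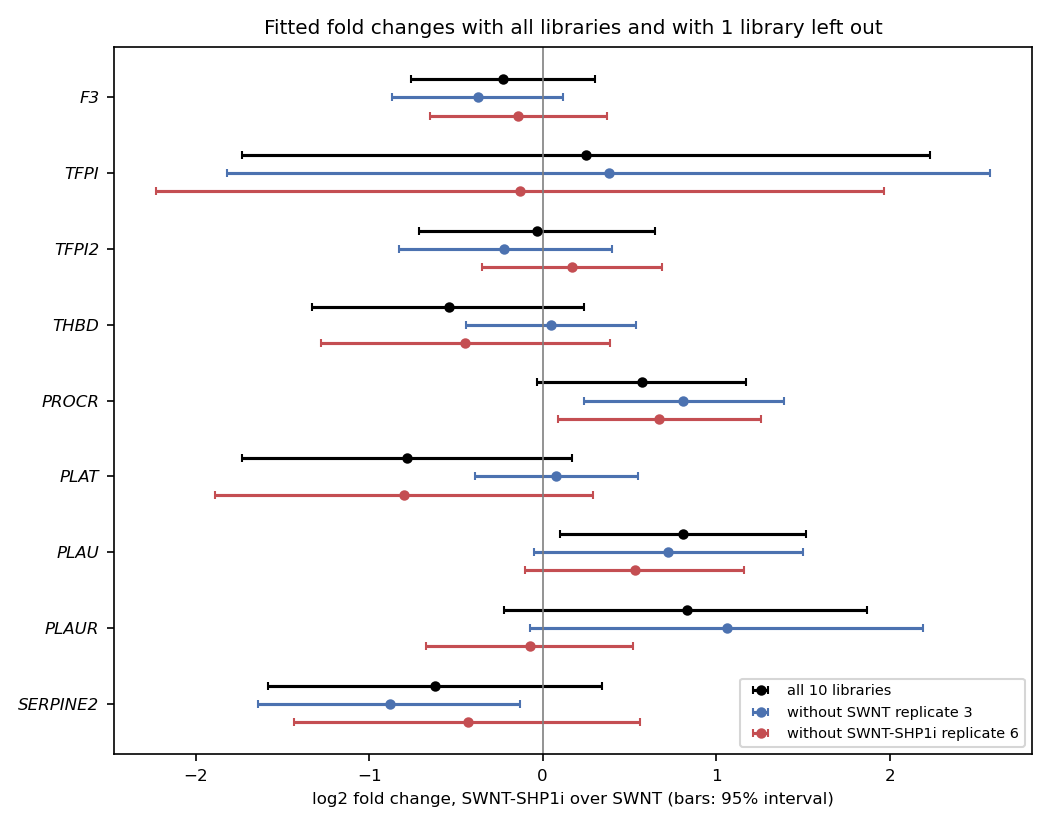
Fitted log2 fold change of each gene (horizontal axis, SWNT-SHP1i over SWNT) with its approximate 95% interval, with all 10 libraries (black), without SWNT replicate 3 (blue) and without SWNT-SHP1i replicate 6 (red). THBD and PLAT moved to 0.05 and 0.08 without SWNT replicate 3, and PLAUR moved to -0.07 without SWNT-SHP1i replicate 6.

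Tissue-type plasminogen activator, the enzyme that endothelium releases to start fibrinolysis, had the widest gap of the 9 genes between its highest library and the next (3.81 times). PLAT (ENSSSCG00000007032) lies on chromosome 17 (11195602 to 11224032, minus strand). It stood at 65.2, 54.3, 288.8, 53.1 and 54.8 CPM in SWNT replicates 1 to 5, and at 55.1, 73.0, 33.6, 75.8 and 63.3 CPM in SWNT-SHP1i replicates 1, 2, 3, 5 and 6. In SWNT replicate 3, with 12933 counts, the level was 5.24 times the median of the other 9 libraries, a ratio of highest library to the rest that 1024 of 15930 genes tested reached or exceeded, 140 of them in this library. The other 4 SWNT libraries lay within 53.1 to 65.2 CPM, inside the SWNT-SHP1i range. Its log2 fold change of -0.78 ± 0.48 (unadjusted p = 0.133, adjusted p = 0.997, edgeR) became 0.08 without SWNT replicate 3, and over the B9 animals it was 0.23. DESeq2 gave PLAT a log2 fold change of -0.76 but no p, so PLAT could not be called by it.

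Endothelial genes did not share 1 highest library. Of the 10 endothelial markers, 4 were highest in SWNT replicate 3 and 6 in an SWNT-SHP1i library. NOS3, the endothelial nitric oxide synthase, was at 318.0 CPM in SWNT replicate 3 and at 31.4 to 93.6 CPM elsewhere. KLF2, a flow-responsive transcription factor known to raise THBD, was at 345.4 CPM there and at 58.4 to 223.7 CPM elsewhere. The KLF2 value of 223.7 CPM was in SWNT-SHP1i replicate 6. VWF, the carrier of factor VIII, was at 372.1 CPM in SWNT replicate 3, yet at 422.3 CPM in SWNT-SHP1i replicate 6. In SWNT-SHP1i replicate 6 PLAT (63.3 CPM) lay mid-range and THBD (43.3 CPM) was the lowest of the 10. The mean centred level of the 10 endothelial markers was 0.87 in SWNT replicate 3 and 0.69 in SWNT-SHP1i replicate 6. Immediate early genes summed to 5209 CPM in SWNT replicate 3 and to at most 1797 CPM in any SWNT-SHP1i library. The part of these lists in the PLAT and THBD levels was not tested.

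Urokinase, the plasminogen activator of migrating cells and macrophages, had the smallest p of the 9. PLAU (ENSSSCG00000010312) lies on chromosome 14 (76629299 to 76635172, plus strand). Its levels were 46.8, 22.4, 24.7, 37.4 and 31.4 CPM in SWNT replicates 1 to 5 and 39.1, 71.4, 56.1, 21.3 and 97.6 CPM in SWNT-SHP1i replicates 1, 2, 3, 5 and 6. SWNT-SHP1i replicates 2, 3 and 6 lay above every SWNT library, replicate 1 lay among them, and replicate 5 was the lowest of all 10. Mean log2 CPM was 4.97 ± 0.43 (SD, n = 5) for SWNT and 5.66 ± 0.84 for SWNT-SHP1i. The log2 fold change was 0.81 ± 0.36 (SE, unadjusted p = 0.0438, adjusted p = 0.997, edgeR), ranked 646 of the 15930 genes by p. It was 0.53 without SWNT-SHP1i replicate 6, 0.44 without SWNT-SHP1i replicates 3 and 6, and 1.02 without SWNT-SHP1i replicate 5 (unadjusted p = 0.00508, adjusted p = 0.325, edgeR).

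Macrophage markers and PLAU were high in some of the same libraries. The mean centred macrophage level was 0.91, 0.71 and 1.59 in SWNT-SHP1i replicates 2, 3 and 6, where PLAU was highest, and -0.93 in replicate 5, where it was lowest. They were lower still in SWNT replicates 2 (-1.11) and 3 (-1.27), where PLAU was next lowest. In SWNT-SHP1i replicate 1 they stood at 0.77 with PLAU mid-range, at 39.1 CPM. All 10 macrophage markers were present in every library, and their summed level was 391 to 1184 CPM in SWNT and 405 to 2123 CPM in SWNT-SHP1i. All 10 had positive log2 fold changes (SWNT-SHP1i over SWNT, median 1.30), and 0 were called. An unadjusted p under 0.05 (edgeR) was reached by 9 of them, against 3.49% of all genes tested in that direction. Their part in the PLAU levels was not tested.

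PLAUR, the receptor that holds urokinase at the cell surface, was high in 1 library. PLAUR (ENSSSCG00000032434) lies on chromosome 6 (50489777 to 50505418, minus strand). It stood at 11.7, 8.49, 16.7, 8.08 and 7.36 CPM in SWNT replicates 1 to 5 and at 11.13, 14.2, 6.74, 7.88 and 53.3 CPM in SWNT-SHP1i replicates 1, 2, 3, 5 and 6. SWNT-SHP1i replicate 6 was the highest library for 29.39% of all genes tested. For PLAUR it was at 3.19 times the next library, SWNT replicate 3, and the other 4 SWNT-SHP1i libraries lay at or below 14.2 CPM. Its log2 fold change of 0.83 ± 0.53 (unadjusted p = 0.147, adjusted p = 0.997, edgeR) was -0.07 without that library. Neutrophil markers summed to 345.4 CPM in SWNT-SHP1i replicate 6 and to at most 13.3 CPM in any SWNT library, with S100A8 and S100A12 at 0 in some libraries. MMP9 alone held 221.1 CPM of the sum in SWNT-SHP1i replicate 6. The sum was 76.9 CPM in SWNT-SHP1i replicate 3 and 44.8 CPM in SWNT-SHP1i replicate 1. In SWNT-SHP1i replicates 2 and 5 it was 8.68 and 3.06 CPM, no higher than in SWNT. The second highest mean level of these markers (2.62) was in SWNT-SHP1i replicate 3, where PLAUR was lowest. Their part in the PLAUR levels was not tested.

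Whether urokinase and its receptor varied together depended on which libraries were taken. Per kilobase, PLAU exceeded PLAUR by 1.06, 0.47, -0.37, 1.27 and 1.16 on the log2 scale in SWNT replicates 1 to 5 and by 0.88, 1.40, 2.12, 0.50 and -0.06 in SWNT-SHP1i replicates 1, 2, 3, 5 and 6. PLAUR thus reached or passed PLAU in SWNT replicate 3 and SWNT-SHP1i replicate 6, with PLAU low in the first and both genes at their highest in the second. Their Pearson correlation over 10 libraries was 0.60 (permutation p = 0.0570, adjusted p = 0.342 over 36 pairs of genes), with a Spearman rho of 0.37 (permutation p = 0.294, adjusted p = 0.748). It was -0.17 without the 2 libraries farthest from the PLAU median, SWNT-SHP1i replicates 2 and 6, so the relation rests on those. It was 0.15 without SWNT-SHP1i replicate 6, and among the 8 B9 animals it was 0.85.

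SERPINE2, also called protease nexin 1, is a wall-derived inhibitor of thrombin and of both plasminogen activators. The gene (ENSSSCG00000016233) lies on chromosome 15 (125748394 to 125816215, minus strand). Levels in SWNT replicates 1 to 5 were 108.5, 116.2, 19.2, 88.4 and 139.5 CPM. They were 35.0, 121.7, 52.3, 70.4 and 27.3 CPM in SWNT-SHP1i replicates 1, 2, 3, 5 and 6. SWNT replicate 3 was the lowest of all 10, the other 4 SWNT libraries lay above 88 CPM, and SWNT-SHP1i replicate 2 was the only treated library in that range. The log2 fold change was -0.62 ± 0.49 (unadjusted p = 0.230, adjusted p = 0.997, edgeR). It was -0.88 without SWNT replicate 3 (unadjusted p = 0.0427, adjusted p = 0.983) and -0.31 without SWNT-SHP1i replicates 3 and 6, and stayed negative in all 20 alternative fits run for it.

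**Figure D3:**
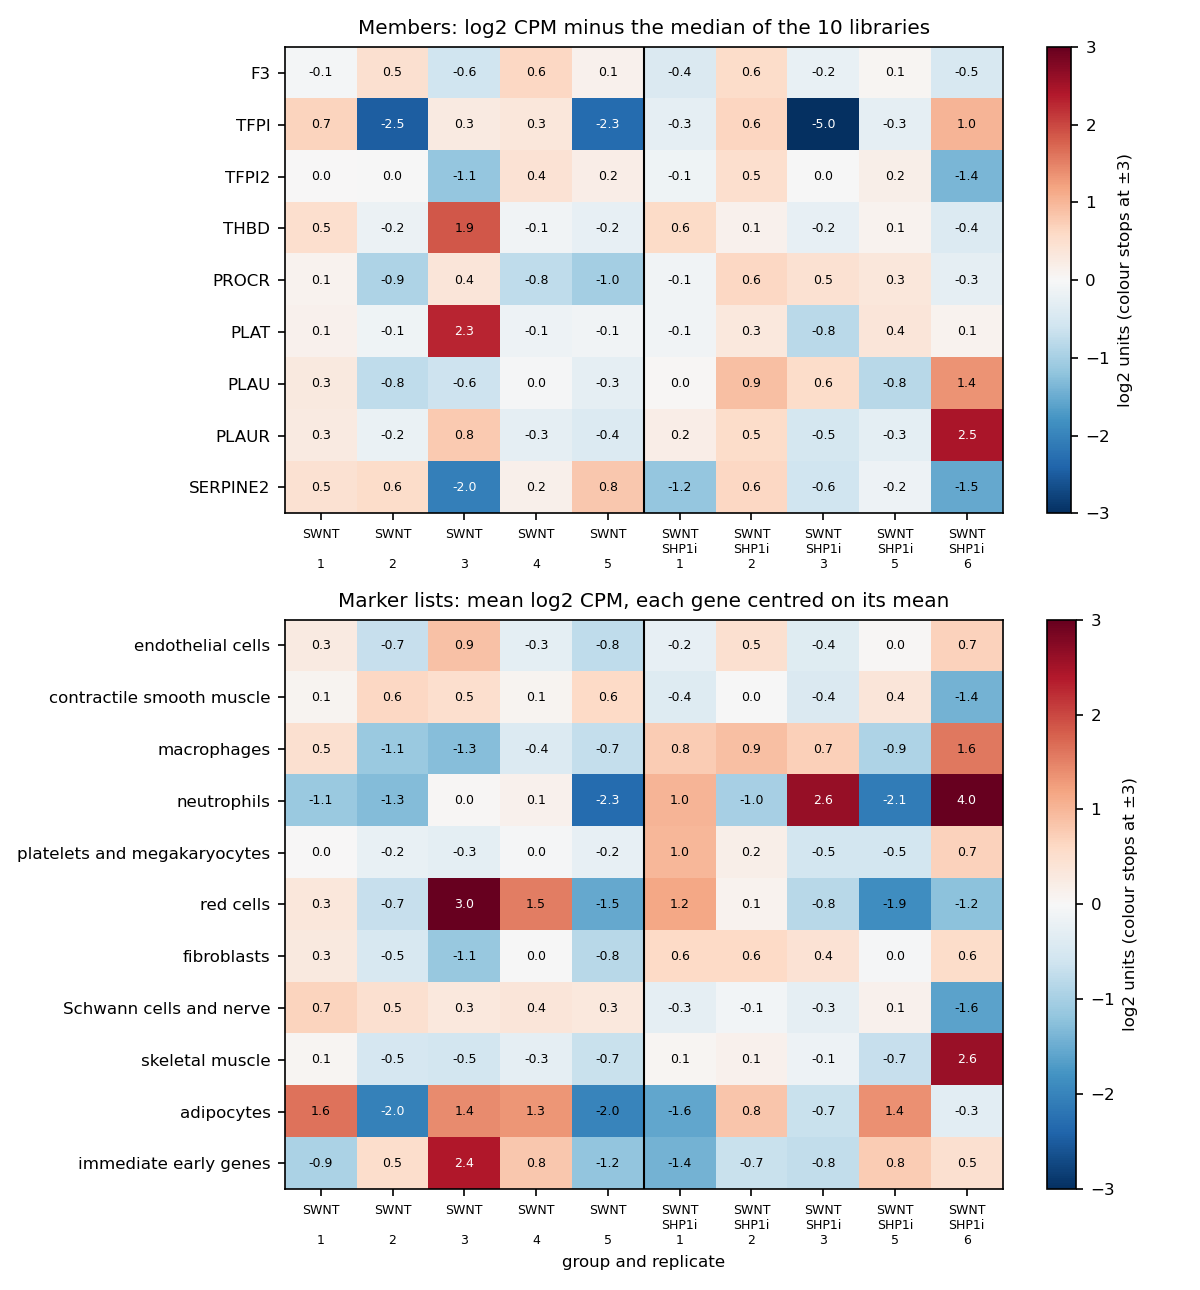
Top, log2 CPM of each of the 9 genes in each library minus that gene's median over the 10 libraries. Bottom, mean centred log2 CPM of each cell type or response marker list (colours stop at 3 log2 units either way, the printed values do not). SWNT replicate 3 is high for PLAT and THBD and low for TFPI2 and SERPINE2, and SWNT-SHP1i replicate 6 is high for PLAU and PLAUR and low for TFPI2 and SERPINE2.

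Among themselves, tissue factor, TFPI2 and SERPINE2 varied together across animals by Pearson correlation. Of 36 pairs of the 9 genes, 3 had a Pearson correlation of log2 CPM with an adjusted permutation p under 0.05 (10 libraries, 100000 resamples), and all 3 were among these genes. The 3 pairs are made of the same 3 genes, so they are not separate results. How often pairs of other genes in the table reach such correlations was not computed. F3 and TFPI2 had r = 0.79 (permutation p = 0.00221, adjusted p = 0.0360) and rho = 0.85 (permutation p = 0.00288, adjusted p = 0.0992). F3 and SERPINE2 had r = 0.84 (permutation p = 0.00300, adjusted p = 0.0360) and rho = 0.82 (permutation p = 0.00551, adjusted p = 0.0992). TFPI2 and SERPINE2 had r = 0.84 (permutation p = 0.00280, adjusted p = 0.0360) and rho = 0.77 (permutation p = 0.0123, adjusted p = 0.111). By Spearman's rho, 0 of the 36 pairs passed after adjustment. Both SWNT replicate 3 and SWNT-SHP1i replicate 6 were low for all 3 genes. Without the 2 libraries farthest from the median of the first gene, r was 0.69 for F3 and TFPI2 and 0.86 for F3 and SERPINE2 (SWNT replicates 3 and 4 left out), and 0.53 for TFPI2 and SERPINE2 (SWNT replicate 3 and SWNT-SHP1i replicate 6 left out). With each group's mean removed r was 0.81, 0.83 and 0.86 in the same order, and over the 8 animals with B9 numbers it was 0.75, 0.78 and 0.77. All points share the same libraries and the same scaling factor per library, which can add to such relations.

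THBD and PLAT had the highest Pearson correlation of all 36 pairs, which rested on 1 animal. Their r was 0.87 (permutation p = 0.0170, adjusted p = 0.122), with rho = 0.61 (permutation p = 0.0669, adjusted p = 0.448). It was 0.35 without SWNT replicate 3, 0.20 over the B9 animals alone, and 0.49 without SWNT replicate 3 and SWNT-SHP1i replicate 1, the libraries farthest from the THBD median. TFPI2 and PLAUR had r = -0.78 (permutation p = 0.0120, adjusted p = 0.108) and rho = -0.44 (permutation p = 0.205, adjusted p = 0.738), and r was 0.18 without SWNT replicate 3 and SWNT-SHP1i replicate 6, but among the B9 animals it was -0.86. TFPI and PLAUR had rho = 0.79 (permutation p = 0.00868, adjusted p = 0.104) and r = 0.59 (permutation p = 0.084, adjusted p = 0.377). Their r was 0.58 among the B9 animals.

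**Figure D4:**
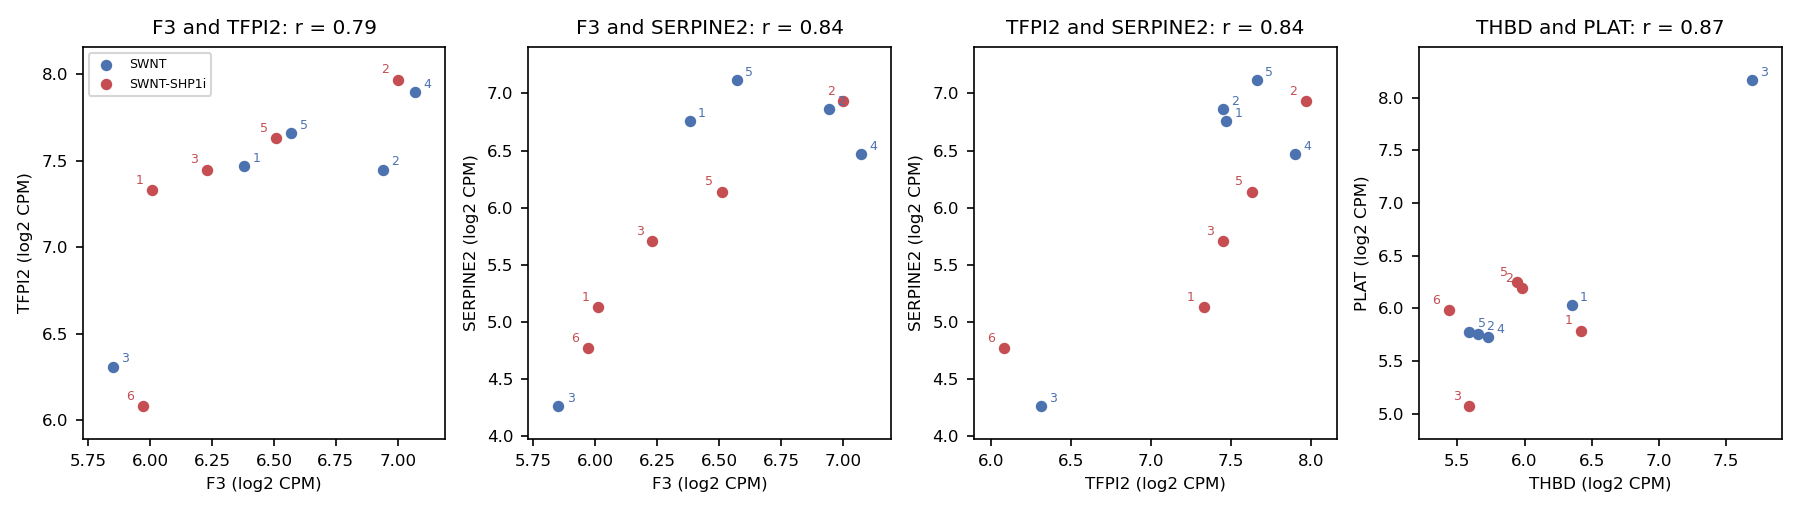
Log2 CPM of 2 genes in each library, for 4 pairs (F3 with TFPI2, F3 with SERPINE2, TFPI2 with SERPINE2, THBD with PLAT), coloured by group and numbered by replicate. F3 with TFPI2 (r = 0.79) and F3 with SERPINE2 (r = 0.84) spread along a line with both groups mixed. TFPI2 with SERPINE2 (r = 0.84) fell to 0.53 without SWNT replicate 3 and SWNT-SHP1i replicate 6. The THBD and PLAT relation (r = 0.87) hangs on SWNT replicate 3 at the upper right.

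The genes most alike to each of the 9 over the 10 libraries, picked by Pearson r among all named genes tested and given without p for that reason, differed from member to member. Among those of F3 were PSPH, an enzyme of serine synthesis (r = 0.895, rho = 0.89), and ALX1 (0.881). TFPI2 was nearest to COPB1, a subunit of the coat of Golgi vesicles (r = 0.984), followed by SLITRK3 (0.982) and PRELID3B (0.976). SERPINE2 was nearest to the potassium channel subunit KCNS3 (r = 0.961), WNT9A (0.932) and FZD10 (0.931).

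THBD was nearest to IVNS1ABP (r = 0.977), which stood at 104.5 CPM in SWNT replicate 3 against 43.2 to 64.2 CPM elsewhere, and then to CCR10 (0.939) and KCNN3 (0.914). Without SWNT replicate 3 these THBD correlations were 0.91, 0.73 and 0.68. PLAT was nearest to C2CD4B (r = 0.947), SLC2A3 (0.947) and GATA2 (0.942), the last a transcription factor of endothelial and blood-forming cells. C2CD4B stood at 49.2 CPM in SWNT replicate 3 and below 1 CPM in the other 9 libraries. The PLAT correlations with that library removed were 0.74, 0.67 and 0.88. PROCR was nearest to TSHZ2 (r = 0.947), IPMK (0.900) and ADGRL4, an adhesion receptor of endothelium (0.887).

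PLAU was nearest to LARGE2 (r = 0.976), to the interleukin 10 receptor subunit IL10RA (0.971) and to PTAFR, the receptor for platelet-activating factor (0.968), of which IL10RA and PTAFR are known from leukocytes. Without SWNT-SHP1i replicate 6 these were 0.96, 0.96 and 0.95. PLAUR was nearest to SLC25A22 (0.978), BACE2 (0.976) and GPSM3 (0.976), and without SWNT-SHP1i replicate 6 these were 0.94, 0.90 and 0.91. Among those of TFPI were RDH16 (r = 0.955) and LHX6 (0.946). RDH16 was at 0.163 CPM in SWNT-SHP1i replicate 3, where TFPI had no count.

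Around these 9 genes, the rest of the pathway gave no called gene in either direction. Of the coagulation factors and the proteins that mature them, 13 of 19 passed the filter on low counts and 0 were called, with a median log2 fold change of 0.21. F13A1, the subunit of factor XIII that cross-links fibrin and is known from macrophages and platelets, came first by p. It stood at 27.3, 11.9, 9.78, 11.8 and 8.44 CPM in SWNT replicates 1 to 5 and at 35.3, 61.9, 32.3, 15.8 and 118.3 CPM in SWNT-SHP1i replicates 1, 2, 3, 5 and 6. In all, 4 treated libraries lay above every SWNT library and replicate 5 did not. Its log2 fold change was 1.93 ± 0.51 (SE, unadjusted p = 0.00238, adjusted p = 0.997, edgeR), and 1.39 without SWNT-SHP1i replicate 6. DESeq2 gave it an adjusted p of 0.0717 (unadjusted p = 6.265e-05), and over all alternatives the adjusted p ran from there to 1.0. F8, the cofactor of factor IX, had a log2 fold change of 0.65 ± 0.39, which was 0.11 without SWNT-SHP1i replicate 6. Of the blood factors made mainly in liver, F7, F9, F11, F13B, FGA and FGG did not pass the filter, and F11 was at 0 in all 10 libraries. Others, among them F2, F10, F12 and FGB, passed it. The group means of these named genes lay between 0.531 CPM (FGB, SWNT-SHP1i) and 1.05 CPM (F10, SWNT).

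Among the receptors for thrombin and related proteases, F2R and F2RL2 were lowest in SWNT replicate 3 and SWNT-SHP1i replicate 6. F2R, the main thrombin receptor, stood at 4.47 CPM in SWNT replicate 3 and 1.33 CPM in SWNT-SHP1i replicate 6, and at 10.5 to 21.2 CPM in the other 8 libraries. F2RL2 was at 11.6 and 2.75 CPM in those 2 libraries and at 24.4 to 55.1 CPM in the others. SWNT-SHP1i replicate 1, low for F3 (64.6 CPM) and SERPINE2 (35.0 CPM), held the highest F2RL2 level. Of 4 receptors 3 were tested and 0 called. F2R gave a log2 fold change of -0.14 ± 0.56, which was 0.15 without SWNT-SHP1i replicate 6. F2RL1 gave 0.58 ± 0.66, and -0.11 without SWNT-SHP1i replicate 3.

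Of the plasminogen system partners 8 of 11 were tested and 0 called, with 4 positive and 4 negative log2 fold changes and a median of 0.07. ANXA2 and S100A10, which together form a surface receptor for plasminogen and PLAT, came first by p. S100A10 had a log2 fold change of 0.92 ± 0.37 (unadjusted p = 0.0288, adjusted p = 0.997, edgeR) and ANXA2 one of 0.52 ± 0.28. SWNT-SHP1i replicate 6 was the highest library for both, at 396.1 and 1153 CPM, as it was for 29.39% of all genes tested. ANXA2 gave 0.22 without it. S100A10 gave 0.60 without it and 0.30 without SWNT-SHP1i replicates 3 and 6. The anticoagulant proteins had 3 of 8 genes tested and 0 called, with PROS1, the cofactor of protein C, at 0.35 ± 0.28 and ANXA5 at 0.19 ± 0.17. PROS1 was positive in all 20 alternative fits run for it and passed the threshold in none. It ran from 0.17 without SWNT-SHP1i replicate 1 to 0.62 without SWNT-SHP1i replicates 3 and 6.

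Genes through which endothelium restrains platelets had 5 of 5 tested, 0 called and a median log2 fold change of -0.22. PTGIS, the prostacyclin synthase, had a log2 fold change of -0.51 ± 0.32, which was -0.30 without SWNT-SHP1i replicate 6. NOS3 had one of -0.46 ± 0.52 that was 0.46 without SWNT replicate 3. The list is named for a known role, and the cells expressing PTGIS were not identified here. PTGIS was lowest in SWNT-SHP1i replicate 6 (240.8 CPM) and highest in SWNT replicate 5 (1102 CPM), where endothelial markers stood at 0.69 and -0.77. It was next lowest in SWNT-SHP1i replicate 3 (565.7 CPM), where they stood at -0.36. Of the 8 transcription factors known to act on genes of this pathway, 8 were tested, 0 were called and 7 had negative log2 fold changes, with a median of -0.26. JUN gave -0.49 ± 0.31 and FOS -1.07 ± 1.06, and without SWNT replicate 3 they gave -0.25 and 0.08. Platelet and megakaryocyte markers (7 of 9 found) summed to 27.3 to 34.0 CPM in SWNT and 22.1 to 52.4 CPM in SWNT-SHP1i, and PPBP, a platelet chemokine, was at 0 in some libraries.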

How the data were processed

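The authors deposited 1 table of raw read counts for each gene, with gene lengths and coordinates per the file headers. Trim Galore, STAR, DESeq2 and the build Sscrofa11.1 are named in the submitters' processing notes without versions. Neither the counting program nor its strand setting is given in the sources used here, nor the annotation release. Each library is from a separate animal, and replicate numbers follow accession order. No library pair agreed within sampling noise (lowest median chi-square per gene 5.89, against 0.455 for noise).

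Counts were filtered with filterByExpr (minimum count 10), scaled by TMM and tested for SWNT-SHP1i over SWNT, with no covariate, by edgeR 4.0.16 (robust quasi-likelihood test, R 4.3.3). Adjusted p-values are Benjamini-Hochberg over 15930 genes. The code was tested on simulated data. SE is the size of a log2 fold change over the root of its F, and intervals are approximate. Levels are CPM or log2 CPM (prior count 2). Pairs of genes were compared by permutation with 100000 resamples. Alternatives used DESeq2 1.42.0, limma 3.58.1, other scalings and filters, and fewer libraries. Symbols came from the table for 17532 rows, from a gene identifier table for 223 and from RefSeq positions for 840 (overlap of at least 0.5 of the union).

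The 9 genes, the lists and the libraries left out were chosen with earlier results of these data known. All 9 genes are named, with the 2 genes of smallest p in each pathway list, other genes of those lists as levels, and the 3 genes most alike to each, except that some genes under these rules are not reported here.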

Additional observations from a re-analysis of the deposited data

Results flagged for a closer look

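In groups of 5 animals, 4 values stood far from the rest of their group, by a gap to the nearest animal that took most of the group's range. Among 26 such groups checked (the 9 genes and 4 differences between genes, in each treatment), chance would flag about 1 in 20. PLAT was at 8.17 log2 CPM in SWNT replicate 3, the highest of its group. In the same library TFPI2, at 6.31 log2 CPM, and SERPINE2, at 4.26 log2 CPM, were the lowest of their group. TFPI was at -4.21 log2 CPM in SWNT-SHP1i replicate 3, a value set by the prior count, since the count was 0.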

How the results depend on the processing

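No paired analysis was possible because the replicate numbers follow accession order and pair no animals. At an adjusted p under 0.05 the count of genes called, and of the 9 genes among them, was 0 in every alternative fit. At a threshold of 0.1 it was 0 with edgeR, 16 with DESeq2 and 1 with limma-voom (both chosen after seeing the data), with 0 of the 9 among them. Of 180 alternative log2 fold changes of the 9 genes, 161 kept their sign and 19 changed it. F3, PROCR, PLAU and SERPINE2 kept theirs throughout (-0.43 to -0.06, 0.44 to 0.94, 0.44 to 1.02 and -1.03 to -0.31). The sign changed with limma-voom for TFPI2 (0.10), THBD (0.22), PLAT (0.10) and NOS3 (0.58). It changed with B9 or other animal number as a model term for TFPI (-0.01), TFPI2 (0.04) and NOS3 (0.04). Over B9 animals it changed for THBD (0.12), PLAT (0.23), F2RL1 (-0.33), NOS3 (0.51) and FOS (0.33). Without SWNT-SHP1i replicates 3 and 6 it changed for TFPI2 (0.23) and F2R (0.31). Without both SWNT replicate 3 and SWNT-SHP1i replicate 6, chosen after seeing the data, it changed for THBD (0.15), PLAT (0.07) and NOS3 (0.48). With 1 library left out in turn, the sign changed without SWNT replicate 2 for TFPI (-0.02), and without SWNT replicate 3 for THBD (0.05), PLAT (0.08), NOS3 (0.46) and FOS (0.08). It changed without SWNT replicate 4 for TFPI2 (0.11), without SWNT replicate 5 for TFPI (-0.01), TFPI2 (0.03) and F2R (0.01), and without SWNT-SHP1i replicate 3 for F2RL1 (-0.11). Without SWNT-SHP1i replicate 6 it changed for TFPI (-0.13), TFPI2 (0.17), PLAUR (-0.07) and F2R (0.15). Over all fits that left out 1 library, values ran from -0.13 to 0.58 for TFPI, -0.22 to 0.17 for TFPI2, -0.71 to 0.05 for THBD, -0.94 to 0.08 for PLAT, -0.07 to 1.06 for PLAUR, -0.11 to 0.82 for F2RL1, -0.40 to 0.15 for F2R, -0.70 to 0.46 for NOS3 and -1.83 to 0.08 for FOS. The cause was not tested. TFPI had at most 121 counts in a library, which limits its precision. Reads are not independent molecules.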
